A study of Mus musculus with 3 samples.

Results

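This account covers 8 genes: 3 transcripts annotated at a ribosomal RNA (rRNA) locus, Gm26917, Gm42418 and CT010467.1, and 5 protein-coding genes of RNA polymerase I transcription and early rRNA maturation, Polr1a, Polr1b, Ubtf, Ncl and Fbl. They were selected by symbol out of 55536 annotated genes because Gm26917 and Gm42418 take a large share of the counts, so the high counts of these 2 genes are the reason for the choice and not a finding. Each of the 8 symbols had 1 gene identifier, present in all 3 libraries. The libraries form 1 group: C57BL/6J macrophages derived from bone marrow, which are primary cells, treated with Lipid A at 100 ng/ml for 10 min, from which chromatin-fraction RNA was sequenced as total RNA after depletion of rRNA. Replicates 1, 2 and 3 started from 1 µg, 250 ng and 500 ng of RNA and carry the same donor entry in the labels, so their spread measures these samples and may include technical error. An unstimulated control is not analysed here and no conditions are compared, so every value below is a description with no test.

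RNA polymerase I copies the tandem rDNA repeats in the nucleolus into one long precursor, in which transcribed spacers flank and separate the rRNAs of the small and large ribosomal subunits. The precursor is folded, modified by small nucleolar RNPs and cut while still close to the template, and its synthesis is a main user of the growth capacity of a cell. Polr1a and Polr1b code for the 2 large catalytic subunits of the polymerase. Ubtf codes for UBF, the HMG-box protein that covers active rDNA, Ncl for nucleolin, which binds the nascent precursor, and Fbl for fibrillarin, the methyltransferase of box C/D small nucleolar RNPs.

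The 3 rRNA-locus genes lie together on chromosome 17 within 5815 bases (mm10, GENCODE M21). Gm26917 (ENSMUSG00000097971.3, plus strand, 39843013 to 39846341) is typed as a lincRNA, with an unspliced transcript Gm26917-202 of 3329 bases and a spliced transcript Gm26917-201 of 869 bases. CT010467.1 (ENSMUSG00000106106.2, minus strand, 39846353 to 39848827) starts 11 bases past its end and is typed as rRNA. Its transcript CT010467.1-201 (39846353 to 39848201, 1849 bases) is annotated as rRNA and CT010467.1-202 (39848103 to 39848827, 714 exon bases in 4 exons) as a pseudogene. Gm42418 (ENSMUSG00000098178.1, plus strand, 39846958 to 39848788) is an unspliced lincRNA of 1831 bases, and it lies wholly opposite CT010467.1. A RefSeq pseudogene entry for a small-subunit rRNA copy, Rn18s-rs5, has the same length as CT010467.1-201 and nearly the same place (39846354 to 39848202, GRCm38.p6 table). A further lincRNA, AY036118 (minus strand, 39847113 to 39848035), lies inside this stretch. No other annotated gene lay within 20 kb of the 3 genes. The strand of Rn18s-rs5 is not given here. The rRNA type of CT010467.1 is a label of the annotation and does not show that its strand is the sense strand of the rRNA. Whether CT010467.1 or Gm42418 on the other strand carries the sense sequence was not tested.

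**Figure D1:**
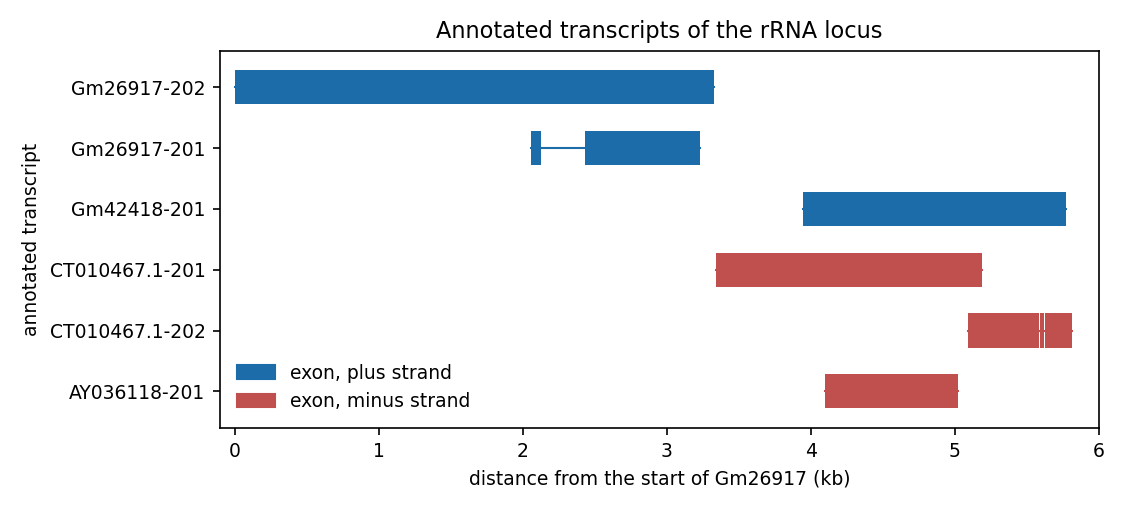
Annotated transcripts of the rRNA locus, drawn to scale in kb from the start of Gm26917. Boxes are exons, blue on the plus strand and red on the minus strand. Gm42418 lies opposite both transcripts of CT010467.1, and Gm26917 ends 11 bases before them. The gap of 2 bases between the leftmost exons of CT010467.1-202 is too narrow to show at this scale.

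The sequences below show what separates these annotations, since the counts turn on it. The splice of Gm26917-201 removes 303 bases that Gm26917-202 keeps. The intron begins with GT and ends with AG, and intron bases are in capitals in the first pair of lines, from chr17:39845111-39845170 and chr17:39845414-39845473 (plus strand, mm10). The line after them is the joined exon sequence, in which no base is marked.
Gm26917-202 across the donor: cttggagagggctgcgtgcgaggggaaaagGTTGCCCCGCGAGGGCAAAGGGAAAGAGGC
Gm26917-202 across the acceptor: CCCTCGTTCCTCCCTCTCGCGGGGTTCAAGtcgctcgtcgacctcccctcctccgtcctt
Gm26917-201 across the junction: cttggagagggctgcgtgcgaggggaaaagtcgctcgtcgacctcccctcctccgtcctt

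Of the 839 words of 31 bases in Gm26917-201, 812 also occur in Gm26917-202 and 27 occur only across its junction, which are the words that can place a read on the spliced form alone. No word of either transcript occurs in a transcript of another gene on either strand. Only annotated transcripts were compared. Copies of the locus sequences outside them, such as in the tandem rDNA repeats, were not searched. Which copy the reads counted here came from was therefore not tested.

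The exons of CT010467.1-202 are parted by gaps of 2 to 5 bases, which is shorter than any spliceosomal intron. The next lines show 2 of these gaps. The first gives the plus-strand Gm42418 over chr17:39848572-39848663, with the bases that CT010467.1-202 leaves out in capitals, and the second gives CT010467.1-202 over the same span on the minus strand, in lower case throughout.
Gm42418-201 over the gaps: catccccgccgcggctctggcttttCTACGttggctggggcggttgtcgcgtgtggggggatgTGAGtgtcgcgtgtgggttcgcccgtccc
CT010467.1-202 over the same bases: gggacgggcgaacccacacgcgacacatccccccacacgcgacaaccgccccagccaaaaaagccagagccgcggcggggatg

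Apart from the omitted bases, the second line is the reverse complement of the first. The last line shows where the end of CT010467.1-201, and so of the RefSeq rRNA copy to within 1 base, falls in Gm42418 (chr17:39848152-39848231, plus strand). Bases inside CT010467.1-201 are in capitals and the bases past it in lower case.
Gm42418-201 over that end: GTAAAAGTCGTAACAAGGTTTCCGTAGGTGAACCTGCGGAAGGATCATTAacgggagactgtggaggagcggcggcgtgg

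Gm42418 thus holds 1244 bases of the span of the rRNA copy and 587 bases past it, and 675 of the 714 exon bases of CT010467.1-202 lie opposite it. Of the 1801 words of Gm42418, 1735 occur in reverse in a transcript of another gene, which is 96.3% of them, and none occurs on the same strand in another gene. The 684 words of CT010467.1-202 include 558 that are reversed in Gm42418, and the 1819 words of CT010467.1-201 include 1214. All 893 words of AY036118 are also in CT010467.1-201 on the same strand and in Gm42418 in reverse. The transcripts of the locus were rich in G and C, which made up 69.1% of Gm26917-202, 68.5% of CT010467.1-202, 60.2% of Gm42418-201 and 55.4% of CT010467.1-201, against a median of 49.2% over 141767 annotated transcripts. The dinucleotide CG occurred 11.2, 12.2, 9.45 and 7.57 times per 100 bases in these 4 transcripts, against a median of 2.08.

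All 8 genes had a TPM of at least 1 in every library of the gene table, the level that counts as detection here. TPM is the length-normalized abundance that the authors deposited. The background is that 45.9% of the 22028 protein-coding genes and 24.4% of all 55536 genes reached it. The counts of the 2 genes that the choice rests on passed it by that choice, and the 8 genes are read as described below and not from this count.

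Gm26917 was the most abundant of the 8. Its TPM was 53733, 33183 and 36378 in replicates 1, 2 and 3, a mean of 41098 ± 11058 (SD, n = 3), which gave it rank 5 among all genes by mean TPM. CT010467.1 had a TPM of 22694, 15557 and 17721, a mean of 18657 ± 3659 (SD, n = 3). Gm42418 had 11826, 8295 and 8478, a mean of 9533 ± 1988 (SD, n = 3). The order Gm26917, CT010467.1, Gm42418 held in each of the 3 libraries, and the 3 ranges did not overlap. Within a library, the TPM of Gm26917 was 4.54, 4.0 and 4.29 times that of Gm42418, so this ratio varied less than either level. Replicate 1 had the highest TPM of each of the 3 genes and replicate 2 the lowest.

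In counts, the estimated number of reads given to a gene, Gm26917 received 2381662, 1833509 and 1937040 in replicates 1, 2 and 3. Gm42418 received 272776, 236205 and 233595, and CT010467.1 163993, 132579 and 148694. Gm26917 therefore took most of the reads of the locus, and by counts Gm42418 stood above CT010467.1 although by TPM it stood below. This reversal between scales comes with the lengths used to normalize: the effective length of CT010467.1 was 492 ± 16.4 bases, close to the short pseudogene transcript, and that of Gm42418 was 1608 ± 16.4 bases (SD, n = 3 each).

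Together the 3 genes held 18.0%, 13.8% and 16.1% of the counts on annotated genes, a mean of 15.9% ± 2.10 (SD, n = 3). Gm26917 alone held 15.2%, 11.5% and 13.5%. The 95% Wilson interval of any such share spanned at most 0.038 percentage points, which covers counting error only, at a depth of 14386725 to 16005795 counts, and the shares of the 3 libraries differed by more than these intervals. The share was highest in the library made from 1 µg and lowest in the library made from 250 ng. Each amount occurred in a single library, so amount and replicate cannot be told apart. By TPM the 3 genes made up a smaller part of each library, 8.83%, 5.70% and 6.26%. The 5 polymerase I genes together held 0.0243%, 0.0289% and 0.0284% of the counts. In bulk samples such as these, fewer cells of a type and less RNA per cell cannot be told apart.

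**Figure D2:**
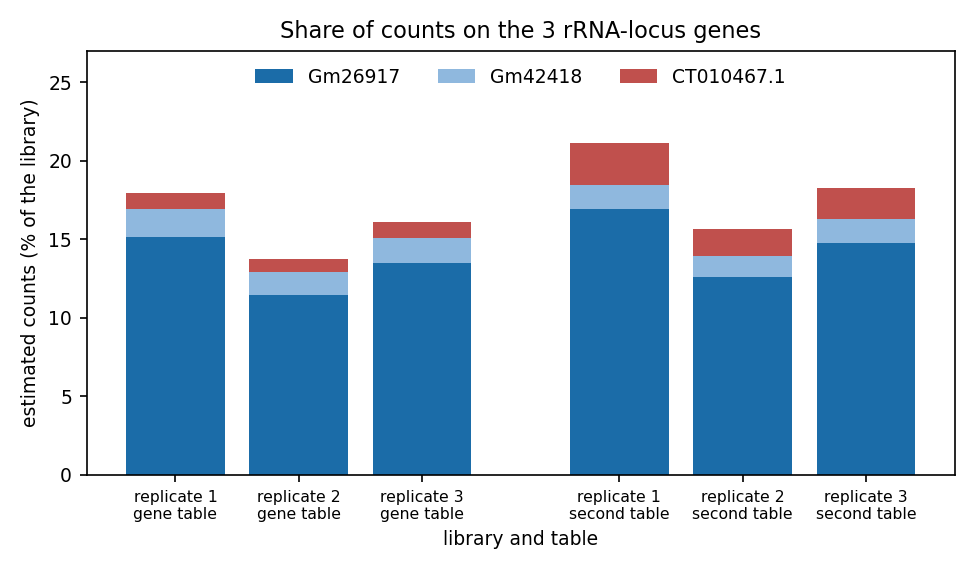
Share of each library's estimated counts on the 3 rRNA-locus genes, stacked by gene, in the gene table (left) and the second transcript table (right), with 1 bar per library and no error bar. In both tables replicate 1 is highest, 18.0% and 21.2%, and replicate 2 lowest, 13.8% and 15.6%, and the CT010467.1 segment is larger in the second table.

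The authors deposited a second transcript table for each library. Its gene values, summed over transcripts, gave the 3 genes 21.2%, 15.6% and 18.3% of counts, a mean of 18.4% ± 2.75 (SD, n = 3). Gm26917 had a TPM of 55349, 39559 and 47843 there, a mean of 47584 ± 7898 (SD, n = 3). Gm42418 had 9530, 7961 and 9495, a mean of 8995 ± 896 (SD, n = 3). These 2 genes were close between tables, with ratios of second to gene table of 1.18 ± 0.14 and 0.96 ± 0.16, against a median ratio of 1.27 ± 0.15 over the 13547 detected genes (SD, n = 3 each). CT010467.1 had 54724, 32234 and 37455, a mean of 41471 ± 11771 (SD, n = 3), and its ratio was 2.20 ± 0.19. In the second table its range over the libraries overlapped that of Gm26917, whereas in the gene table the ranges lay apart. Within each library CT010467.1 was below Gm26917 in both tables.

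How reads were divided between Gm42418 and CT010467.1 therefore depended on the table. Gm42418 took 62.5%, 64.1% and 61.1% of the counts on the pair in the gene table, a mean of 62.5% ± 1.47 (SD, n = 3). In the second table it took 35.8%, 43.6% and 44.1%, a mean of 41.2% ± 4.68 (SD, n = 3). The ranges did not overlap, and which of the 2 genes had more counts was opposite in the 2 tables in all 3 libraries. The TPM of CT010467.1 was 1.96 ± 0.11 times that of Gm42418 in the gene table and 4.58 ± 1.01 times in the second (SD, n = 3 each). The gene table also gives each count a standard deviation from read assignment, a score of how freely reads could move to another annotation. In replicates 1, 2 and 3 it was 270.8, 248.5 and 275.6 reads for Gm42418 and 270.8, 248.4 and 275.6 for CT010467.1, nearly the same number in each library, and it was 0 for Gm26917. Gm42418 and CT010467.1 share sequence only on opposite strands, as the paired lines above show. A read that could move between them therefore matched them on opposite strands. The labels and file headers do not say whether counting used strand, and this was not tested. The assignment of these reads to strand is therefore uncertain, and the levels of these 2 genes are best read as a pair.

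At the transcript level nearly all reads of the locus fell on 3 annotations. Gm26917-201, the spliced form, received 19.5, 39.9 and 96.5 counts in replicates 1, 2 and 3, with assignment standard deviations of 30.8, 32.7 and 39.6 counts, so in replicate 1 its count was smaller than its assignment error. Gm26917-202 held the remaining 2381642, 1833469 and 1936943 counts. CT010467.1-201, the transcript annotated as rRNA, received 435.7, 374.1 and 164.2 counts, which were 0.266%, 0.282% and 0.110% of the gene. The transcript annotated as a pseudogene, CT010467.1-202, received the rest. The second table gave CT010467.1-201 likewise 863.3, 861.5 and 564.6 counts. AY036118 had 0 counts in all 3 libraries of both tables, although all of its words occur in the other transcripts of the locus. A count of 0 allows up to 3 counts, or 0.191, 0.187 and 0.209 CPM (counts normalized to library size) in replicates 1, 2 and 3. For AY036118 this limit covers counting error only, since reads from it could have been given to its neighbours.

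Among the 5 polymerase I genes, Ubtf and Ncl had the highest TPM, Fbl came next and the 2 polymerase subunits were lowest. Ubtf (ENSMUSG00000020923.17, chromosome 11, 102304560 to 102319742, minus strand), which codes for the rDNA architectural factor UBF, had a TPM of 42.4, 34.3 and 36.1 in replicates 1, 2 and 3, a mean of 37.6 ± 4.24 (SD, n = 3). Ncl (ENSMUSG00000026234.12, chromosome 1, 86344719 to 86359400, minus strand), which codes for nucleolin, had 39.4, 40.7 and 31.9, a mean of 37.3 ± 4.76 (SD, n = 3). Their ranges overlapped. They sat at the 82.5 and 82.4 percentiles of detected protein-coding genes by mean TPM.

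Fbl (ENSMUSG00000046865.7, chromosome 7, 28169710 to 28179269, plus strand), the fibrillarin gene, had a TPM of 17.5, 18.1 and 15.5, a mean of 17.0 ± 1.32 (SD, n = 3). Its range lay below those of Ubtf and Ncl and above those of both polymerase subunits. It was at the 62.2 percentile.

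Polr1a (ENSMUSG00000049553.11, chromosome 6, 71909053 to 71984935, plus strand), the largest subunit, had a TPM of 9.91, 9.37 and 6.96, a mean of 8.75 ± 1.57 (SD, n = 3). Polr1b (ENSMUSG00000027395.15, chromosome 2, 129100995 to 129126594, plus strand), the second largest, had 10.2, 8.80 and 6.6, a mean of 8.52 ± 1.79 (SD, n = 3). The 2 subunits, which enter the enzyme in equal number, had overlapping ranges and a Polr1a to Polr1b ratio of 1.03 ± 0.05 (SD, n = 3). In the second table this ratio was 0.87 ± 0.12 (SD, n = 3). They were at the 40.4 and 39.6 percentiles, below the middle of detected protein-coding genes.

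The median TPM of the 5 genes was 17.5, 18.1 and 15.5, and that of all detected protein-coding genes was 14.0, 11.5 and 9.65. On the log2(TPM + 1) scale these medians were 4.17 ± 0.11 and 3.65 ± 0.25 (SD, n = 3 each). In the second table they were 4.14 ± 0.07 and 3.79 ± 0.08 (SD, n = 3 each). RNAs from genes of 200 bases or less took 27.7%, 48.97% and 52.3% of TPM in replicates 1, 2 and 3, and TPM of longer RNAs is relative to this. With TPM rescaled to its full total without these short RNAs and without the 3 rRNA-locus genes, Ubtf had 67.0, 75.8 and 87.1, Ncl 62.2, 89.9 and 77.0, and Fbl 27.6, 39.9 and 37.6. Polr1a then had 15.7, 20.7 and 16.8 and Polr1b 16.04, 19.4 and 15.95. Replicate 3, lowest for 4 of the 5 genes by TPM, was lowest only for Polr1b after rescaling. The order of the libraries in the TPM of these genes thus changed with what the total holds. Both kinds of RNA were left out at once, and the part of each was not tested. Ubtf and Ncl stayed above Fbl, and Fbl above both subunits, in each library after rescaling.

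**Figure D3:**
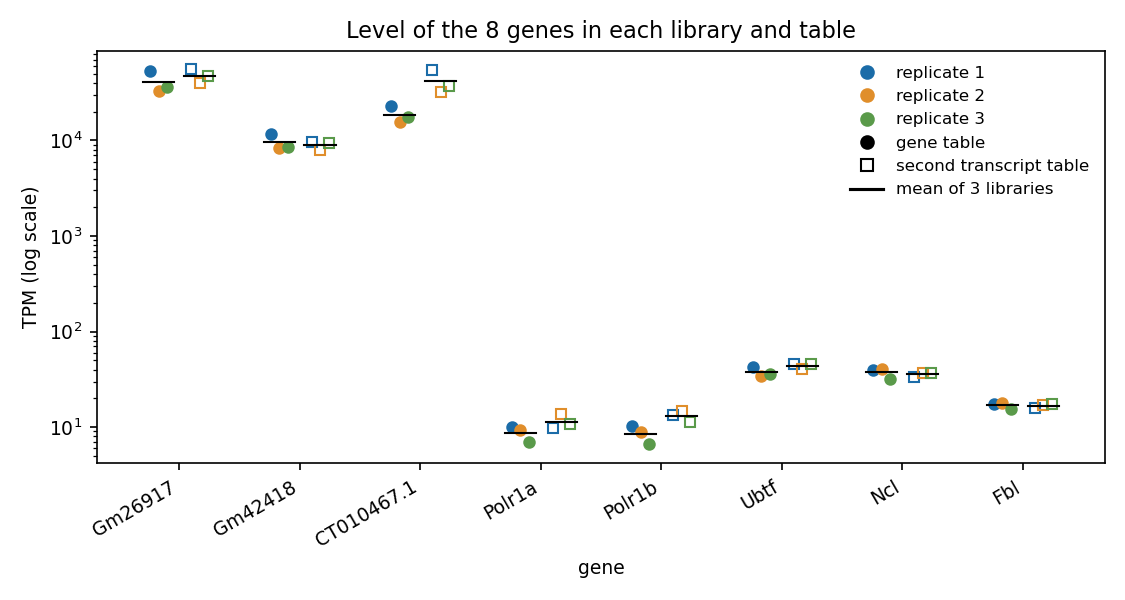
TPM of the 8 genes on a log axis. Circles are the gene table and open squares the second transcript table, coloured by library, and black lines are means of 3 libraries. The rRNA-locus genes lie between 7961 and 55349 and the polymerase I genes between 6.6 and 45.5, and CT010467.1 shows the widest step between tables.

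Chromatin RNA contains unspliced and partly processed transcripts, and the annotation of these genes includes many such forms. The retained intron share is the percent of a gene's TPM on transcripts annotated as retaining an intron. For Ncl it was 70.5%, 73.1% and 72.9%, a mean of 72.2% ± 1.47 (SD, n = 3). For Fbl it was 66.0%, 64.1% and 66.3%, a mean of 65.5% ± 1.21 (SD, n = 3). In both genes most of the TPM lay on such transcripts in every library. By counts, which are not divided by length, this held for Fbl, with 66.2%, 64.6% and 66.3%, but not for Ncl, with 33.1%, 34.5% and 37.6%. Most counts of Ncl lay on its 2 coding transcripts. By TPM, Ubtf had 30.4%, 39.7% and 35.4%, and Polr1a 23.6%, 40.0% and 21.8%, with means of 35.2% ± 4.67 and 28.5% ± 10.0 (SD, n = 3 each). By counts the means were 5.37% ± 0.97 for Ubtf and 13.2% ± 6.44 for Polr1a (SD, n = 3 each).

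The median over these 4 genes was 50.4% ± 1.97, and over all 6523 detected genes with such a transcript it was 46.7% ± 2.33 (SD, n = 3 each). Within each library the median of the 4 genes was the higher, 48.2% against 44.8%, 52.1% against 49.3% and 50.9% against 45.9% in replicates 1, 2 and 3. By counts the direction turned in each library, with 24.2% against 28.8%, 26.5% against 32.1% and 21.8% against 29.8%. Polr1b has no transcript of this class. Of its TPM, 57.0%, 59.8% and 47.4% lay on 3 non-coding processed transcripts and the rest on 2 coding ones. By counts these processed transcripts held 13.7%, 14.3% and 9.31%, so most counts of Polr1b lay on its coding transcripts. Polr1a had 63.3%, 40.0% and 53.6% of its TPM on 3 transcripts annotated as targets of nonsense-mediated decay, the pathway that removes mRNAs with an early stop. Its full-length coding transcript Polr1a-201 of 9216 bases held 13.1%, 20.0% and 24.6% of TPM. By counts it held 31.3%, 45.9% and 50.8%.

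The second table gave mean retained intron shares by TPM of 68.2% for Ncl, 67.6% for Fbl, 32.3% for Ubtf and 36.5% for Polr1a, so the order of Ncl and Fbl above Ubtf and Polr1a was the same and that of Ubtf and Polr1a was not. The assignment standard deviation shows where such shares are loose. In the transcript table that goes with the gene table, it was 52.9 on 212 counts in replicate 1 for the coding transcript Ubtf-203, while for Ubtf as a gene it was 0. Of the 13 transcripts of Ubtf, Ubtf-210 had 0 counts in all libraries of that table with standard deviations of 36.1, 30.02 and 46.4, and only 1 of its 4636 words is its own. In the second table it received 210.9, 579.1 and 631.6 counts, so the 2 tables part on this transcript. For Fbl-204, a retained intron transcript of 2411 bases with 2312 words of its own, the counts were 101, 136 and 118 with a standard deviation of 0. The longest Ncl transcript, Ncl-201, received 984.8, 1397.5 and 1064.9 counts with standard deviations of 18.5, 20.5 and 21.4.

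**Figure D4:**
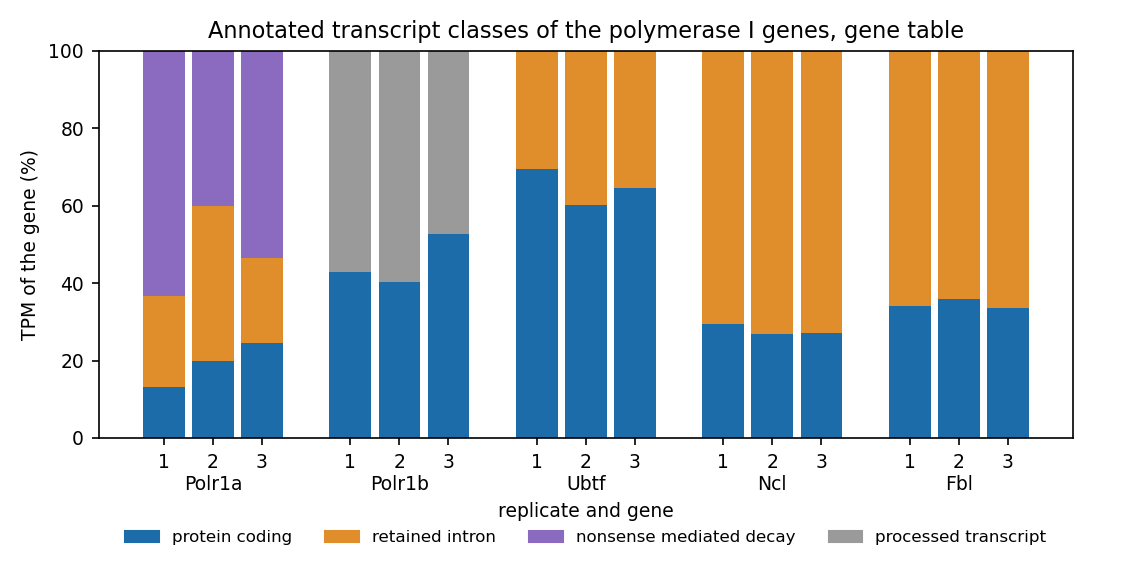
Percent of each polymerase I gene's TPM on annotated transcript classes in the gene table, with 1 bar per library and no error bar. By TPM, Ncl and Fbl are mostly on retained intron transcripts, 64.1% to 73.1%, while by counts, which are not plotted, Ncl has 33.1% to 37.6% there. Polr1b has none of that class, and the shares of Polr1a vary most between libraries.

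Some of these genes share sequence with other annotations. Of the 1167 words of the main Fbl transcript, 829 also occur in the processed pseudogene Gm5812 (chromosome 17, 6121208 to 6122164, minus strand), which lies inside Tulp4 on the opposite strand, and 634 occur in reverse in a Tulp4 transcript. The assignment standard deviation of Fbl was 5.17, 5.30 and 4.57 on 247, 314 and 259 counts in replicates 1, 2 and 3, which is small beside the count. Gm5812 itself had 33.7, 36.0 and 22.6 counts. Ncl hosts small RNA genes on its own strand. Of these, Snora75, Gm24148, mmu-mir-3535 and Snord82 had at most 0.89 counts in any library of the gene table, while Snord82 had a TPM of 34.6, 136 and 257 in the second table. Polr1a is overlapped on the opposite strand by the antisense gene Gm26628, with 50, 75 and 31 counts against 530, 655 and 518 for Polr1a. Of the 9186 words of Polr1a-201, 129 occur in reverse in Gm26628, and the assignment standard deviation of both genes was 0 in each library. Reads of unspliced Polr1a RNA over the span of Gm26628 would still not be told apart without strand. No annotated gene overlapped Polr1b, Ubtf or Fbl.

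To compare the libraries without length or short RNA content, counts were scaled with edgeR's TMM factors to scaled CPM. Gm26917 then had 153318, 108206 and 142307 in replicates 1, 2 and 3, and Gm42418 17560, 13940 and 17161. CT010467.1 had 10557, 7824 and 10924. Replicate 2 was lowest for all 3, by 1.42, 1.26 and 1.40 times between the highest and lowest library. Ncl had 96.6, 126.7 and 126.1, Polr1a 34.1, 38.7 and 38.1, and Fbl 15.9, 18.5 and 19.0, with replicate 1 lowest in these 3 genes. Ubtf had 81.4, 73.2 and 99.0, and Polr1b 17.1, 15.9 and 17.7. Ubtf and Polr1b thus had replicate 2 lowest, as the rRNA-locus genes did, and ran in the order of CT010467.1, with replicate 3 highest. Polr1a, Ncl and Fbl did not, so the 5 polymerase I genes had no single order. With library totals that leave out the 3 rRNA-locus genes as the only scaling, replicate 1 and not 3 was highest for CT010467.1 and Polr1b, and replicate 2 and not 3 for Fbl. The lowest library of each of the 8 genes was the same under both scalings and under DESeq2's size factors.

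The SD between libraries on the log2 scale was 0.26 for Gm26917, 0.18 for Gm42418 and 0.26 for CT010467.1. It was 0.10 for Polr1a, 0.08 for Polr1b, 0.22 for Ubtf, 0.22 for Ncl and 0.14 for Fbl. The median over 14789 genes with a mean of 1 CPM or more was 0.20, so the 8 genes lay on both sides of it, between the 11.9 percentile of Polr1b and the 64.8 percentile of Gm26917 and CT010467.1. Each of these values rests on 3 libraries. Leaving out replicate 2 took the SD of Gm26917 to 0.076, of Gm42418 to 0.023 and of CT010467.1 to 0.035, and leaving out replicate 1 took that of Ncl to 0.0052, of Fbl to 0.027 and of Polr1a to 0.016. Replicate 2 thus lay farthest from the other libraries for the 3 rRNA-locus genes, and replicate 1 for Ncl, Fbl and Polr1a. For Ubtf the SD was 0.11 without replicate 3 and for Polr1b 0.034 without replicate 2. With 3 libraries, leaving out the farthest always lowers the SD, and how far it fell in other genes was not tested.

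Likeness of profile was measured as the Euclidean distance between log2 scaled CPM values over 3 libraries, each centred on its gene's mean, among 10533 genes with a mean of 5 CPM or more. The 3 nearest genes were Rhot2, Prpsap1 and Med12 for Gm26917, those for Gm42418 included Usp5 and Mks1, and they were Fyb, Abhd16a and Trpm4 for CT010467.1. For Polr1a they were Ociad1, Rdh13 and Camkmt, for Polr1b Megf9, Sumo3 and Plekhg3, and for Ubtf Pdzd11, Smarcc2 and Golga2. For Ncl they were Xrcc3, Rbm12 and 9130221H12Rik, and for Fbl Znrf3, Pwwp2a and Gm37296. None of the 8 genes was among the 3 nearest of another. The closest pair among them was Polr1a and Fbl at 0.07, then Gm26917 and CT010467.1 at 0.11, and the farthest was Gm26917 and Ncl at 0.63. With 3 points per profile a small distance is given only as a description.

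The other genes of rRNA synthesis and processing were taken from 8 lists of the machinery, which held 74 different genes with the 5 members. Detection, a TPM of at least 1 in each library, was reached by 70 of the 74, and by 65 of the 69 that are not members, against the 45.9% of all protein-coding genes given above. The 4 that did not reach it were the polymerase subunit genes Polr1e and Polr2h, Cavin1, which codes for a transcript release factor that also coats caveolae, and Nop10, a small H/ACA protein gene.

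Of 13 polymerase I subunit genes, 11 were detected. Polr1d, a subunit shared with polymerase III, was highest with a TPM of 10.4 ± 0.59, followed by Polr1a, and Polr1e and Polr2h were lowest with 1.58 ± 0.70 and 1.56 ± 0.68 (SD, n = 3 each). The median of the list was 5.41 ± 0.86 (SD, n = 3). The large subunits of the other nuclear polymerases stood higher: Polr2a and Polr2b of polymerase II had 39.8 ± 9.98 and 17.0 ± 7.73, and Polr3a and Polr3b of polymerase III 23.99 ± 3.70 and 14.7 ± 2.64 (SD, n = 3 each). In each library Polr1a was below Polr2a and Polr3a and Polr1b below Polr2b and Polr3b.

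Of 9 initiation and termination factor genes, 8 were detected. Taf1d, which codes for a subunit of the promoter selectivity factor SL1 and hosts small nucleolar RNAs in its introns, was highest with 115, 156 and 149, a mean TPM of 140 ± 21.9 (SD, n = 3), and Ubtf was next. The other SL1 subunits Taf1a, Taf1b and Taf1c had 7.31 ± 0.88, 8.03 ± 2.54 and 6.53 ± 1.73, and Rrn3, which couples the polymerase to SL1, 6.78 ± 0.91 (SD, n = 3 each). Ttf1, the terminator-binding factor, had 19.6 ± 4.27, and Cavin1 was lowest with 0.0900 ± 0.0500 (SD, n = 3 each).

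All 4 box C/D protein genes were detected. Nop56 had a TPM of 37.8 ± 8.84, Fbl was next, and Nop58 and Snu13 had 15.7 ± 2.77 and 4.74 ± 1.13 (SD, n = 3 each). Of the 4 box H/ACA protein genes, whose products join the RNAs that guide pseudouridine formation, 3 were detected, Dkc1 with 15.2 ± 1.78, Gar1 with 6.51 ± 1.84 and Nhp2 with 3.12 ± 0.43, while Nop10 had 0.823 ± 0.745 (SD, n = 3 each). All 5 nucleolar phosphoprotein and chaperone genes were detected, led by Ncl and by Npm1 with 26.97 ± 2.94, with Nop2 at 7.90 ± 0.45 and Nolc1 at 4.32 ± 0.41 lowest (SD, n = 3 each).

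All 17 early processing factor genes were detected, with a median TPM of 10.5 ± 1.80. Wdr43 and Pdcd11, of the small-subunit processome, were highest with 39.4 ± 3.50 and 30.98 ± 5.25, and Imp3 and Rcl1 lowest with 3.56 ± 0.38 and 1.5 ± 0.31 (SD, n = 3 each). All 14 late processing factor genes were detected, with a median of 14.6 ± 3.09. Xrn2, a nuclear exonuclease, had 54.7 ± 6.76 and Gnl3, which codes for nucleostemin, 48.3 ± 10.6, while Nol9 and Nop53 had 6.59 ± 1.44 and 6.52 ± 1.85 (SD, n = 3 each). All 8 genes of rDNA silencing and chromatin were detected, with the highest median of the 8 lists, 26.6 ± 4.01 (SD, n = 3). Sirt7, a nucleolar deacetylase gene, had 131, 79.8 and 77.5, a mean of 96.0 ± 30.01, and Baz2a, which codes for the NoRC subunit TIP5, 55.7 ± 14.1, while Rrp8 and Suv39h1 had 6.51 ± 0.48 and 5.79 ± 1.45 (SD, n = 3 each).

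**Figure D5:**
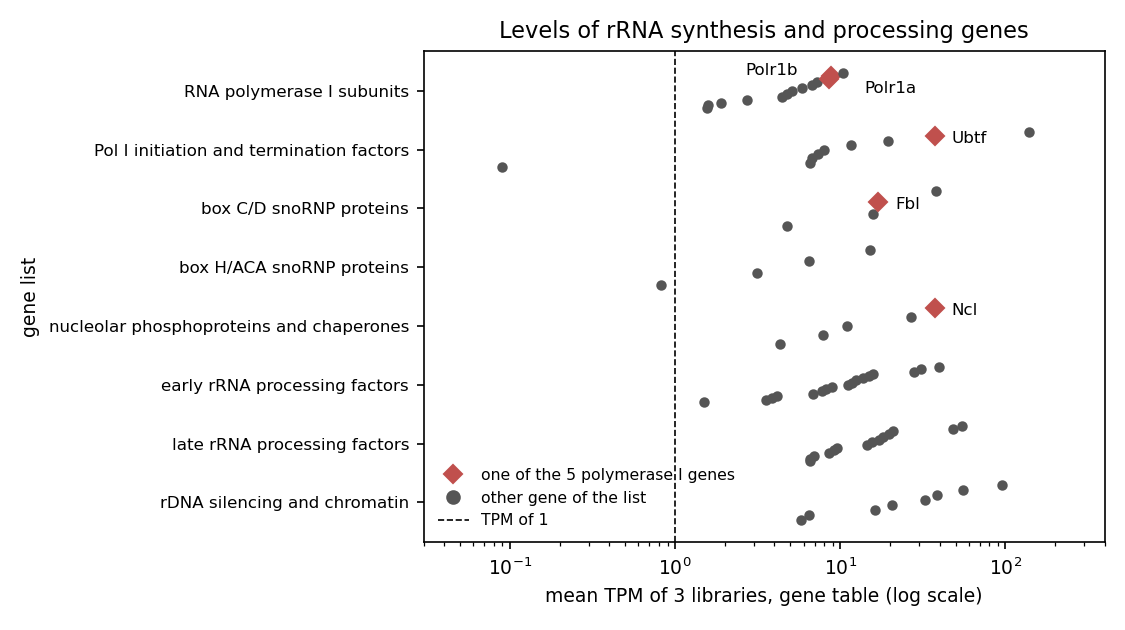
Mean TPM over 3 libraries of the gene table on a log axis for each gene of the 8 lists, with 1 point per gene spread vertically within its list by rank, and no error bar. Red diamonds are the 5 polymerase I genes and the dashed line is a TPM of 1. Ubtf and Ncl are first or second of their lists, while Polr1a and Polr1b, close to 8.75 and 8.52, are below Polr1d and above the rest of a list whose median is 5.41.

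The rRNAs encoded by mitochondria were also read in these depleted chromatin-fraction libraries. How far fractionation and depletion changed their levels was not tested, so they are given as a description only. By TPM, mt-Rnr1 had 6.30, 7.34 and 9.98 and mt-Rnr2 4.97, 5.74 and 4.08, far below each rRNA-locus gene in every library. The cell type labels were checked with marker genes. All 8 macrophage markers were detected, among them Lyz2 with a TPM of 240 ± 115 and Csf1r with 206 ± 74.0, and Itgam was lowest with 18.9 ± 6.48 (SD, n = 3 each). None of 10 markers of other cell types was detected, and their summed TPM was 0.81, 0.8 and 1.0. Cd3e, Ncr1, Hbb-bt and Epcam were among those at 0 in all 3 libraries. Pecam1 was the 1 marker of the 10 that reached a TPM of 1 in every library of the second table, with a mean of 5.59.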

How the data were processed

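RNA-seq of chromatin-fraction RNA was analysed in 3 libraries of 1 group. Per the file headers, the authors deposited for each library a gene table and a transcript table with an estimated count, a TPM and the posterior standard deviation of that count, used here as a score of assignment error, and a second transcript table with estimated counts and TPM. Per the deposited readme files, all use mm10 and GENCODE M21. The program, its version and its strand setting were not given in the sources used here. Estimated counts on genes were 15698066, 16005795 and 14386725 for replicates 1, 2 and 3, and rows that named no annotated gene, with 1.16%, 0.459% and 0.351% of counts, were left out. Second-table values were summed over the transcripts of a gene.

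The 8 genes and the gene lists were chosen with earlier results of these data known. Means and SD over 3 libraries are given, and no test was made, since there is 1 group. Detection was a TPM of at least 1 in each library, and log values used a pseudocount of 1. Counts rounded to whole numbers were scaled with TMM in edgeR 4.0.16 (R 4.3.3) on 14802 genes, with DESeq2 1.42.0 size factors as an alternative, and the scaling and distance steps were tested on simulated data. Spread used genes with a mean of 1 CPM or more and profile likeness those with 5 CPM or more. Sequences came from the GENCODE M21 transcripts, compared as words of 31 bases on both strands, and coordinates are 1-based. Named genes were the 8 genes, the highest 2 and lowest 2 of each list, genes within 20 kb of the rRNA locus or overlapping a member, and the 3 nearest genes in profile. Other genes, such as those sharing words with Fbl, were named after their values were seen. The alternatives were the second table, other pseudocounts, minima, scalings and TPM totals, leaving out each replicate and, added after seeing the data, transcript shares by counts. Some genes named by the rules for neighbours and markers are not reported here.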

Additional observations from a re-analysis of the deposited data

How the results depend on the processing

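Leaving out each replicate in turn gave 14.9% to 17.0% for the share of counts on the 3 rRNA-locus genes. It gave 61.8% to 63.3% for the share of Gm42418 in its pair. The median log2(TPM + 1) of the 5 polymerase I genes was then 4.13 to 4.23. The median retained intron share of the 4 of them with such transcripts was 49.6% to 51.5%, and 70 to 71 machinery genes were detected. A value counted as moved at a change of 1 SD or more, or of more than 1.5 times for the machinery count and the spreads. With 3 libraries, leaving out 1 cannot shift a mean by 1 SD and can only raise the number of genes detected. These ranges are therefore a description and not a test of stability. The second table moved the rRNA-locus share to 18.4% and the Gm42418 share to 41.2%, and it moved the mean TPM to 41471 for CT010467.1, 11.4 for Polr1a, 13.2 for Polr1b and 43.9 for Ubtf. Taken by counts in place of TPM, a choice made after seeing the data, the median retained intron share was 24.2%. Without short RNAs and the rRNA-locus genes in the TPM total, the median log2(TPM + 1) was 5.15, and the mean TPM was 17.7 for Polr1a, 17.1 for Polr1b, 76.6 for Ubtf, 76.4 for Ncl and 35.0 for Fbl. With log2(CPM + 1), which is not divided by length, the median was 5.24. The machinery count was 72 in the second table, at a TPM of 0.1 and with rescaled TPM, and 54 at a TPM of 5. With a replicate left out, the SD of log2 scaled CPM ranged from 0.076 to 0.36 for Gm26917, 0.023 to 0.24 for Gm42418, 0.035 to 0.34 for CT010467.1, 0.016 to 0.13 for Polr1a, 0.034 to 0.11 for Polr1b, 0.11 to 0.31 for Ubtf, 0.0052 to 0.28 for Ncl and 0.027 to 0.18 for Fbl. With library totals without the rRNA-locus genes it was 0.042 for Polr1b. The cause of these moves was not tested, apart from the changed denominators and the fewer libraries. Depth limits single transcripts of these genes, since Polr1b and Fbl had 241 to 314 counts in all. No paired analysis was possible because there is 1 group.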

Other observations

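Gm6211, a transcribed processed pseudogene of chromosome 13 that shares 124 words with the main Fbl transcript, had 0 counts in all 3 libraries of the gene table and 1031, 1449 and 1268 counts in the second table, more than Fbl itself, which had 329, 455 and 390 there. In the gene table the effective length of Polr1a was 3767, 3910 and 4339 bases in replicates 1, 2 and 3, beside a coding-transcript share of counts of 31.3%, 45.9% and 50.8%. Its scaled CPM was lowest in replicate 1 and its TPM in replicate 3, and with TPM rescaled without short RNAs and the rRNA-locus genes replicate 1 was again lowest.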
